A study of Mus musculus with 8 samples.

Results

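The genes described here are those of the major histocompatibility complex (MHC) and of antigen presentation. They were taken as every probe set that the platform annotation assigns to a single symbol beginning with H2-, the prefix of the mouse MHC, or to 1 of 15 further genes that supply, load or control MHC molecules. This gave 66 probe sets of 36 genes, out of 45037 probe sets tested, of which 28898 carry 1 symbol and stand for 17097 genes. Class I accounts for 42 probe sets of 23 genes and class II for 24 probe sets of 13 genes. Of the 15 further genes, 11 had a probe set, and B2m, Tap1, Tap2 and Mr1 are not among the symbols of the annotation used here, so they were not analysed here.

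Expression was measured on 1-colour arrays in interfollicular epidermis, the sheet of skin epithelium that lies between the hair follicles, with 4 arrays for mice with a conditional knockout (cKO) of G9a and 4 for G9a wild-type (WT) mice. G9a, encoded by Ehmt2, is a histone H3 lysine 9 methyltransferase. All 8 samples had the same chemical treatment: the carcinogen DMBA at 0.25 mg/ml and the tumour promoter TPA at 0.02 mg/ml, 200 µl in acetone, were put on shaved back skin every week for 6 weeks from the age of 8 weeks. The epidermis was taken before tumours had formed, and the labelled age is 15 weeks. The Cre driver, the deleted exons, the mouse strain and MHC haplotype, and whether each replicate was a separate animal do not appear in the labels, so p-values here rest on the spread among arrays, which may be technical. No untreated skin was analysed here, so each difference below is between treated knockout and treated control epidermis.

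MHC class I molecules sit on nearly every nucleated cell and show peptides made inside it to cytotoxic T cells. The immunoproteasome cuts these peptides, the TAP transporter with its partner tapasin brings them to the heavy chain in the endoplasmic reticulum, and NLRC5 drives transcription of the set. Class II molecules show peptides taken up from outside to helper T cells. Their alpha and beta chains assemble on the invariant chain CD74, exchange its fragment for a peptide with the help of H2-DM, and are switched on by the transactivator CIITA. In epidermis, class II is borne above all by Langerhans cells, and keratinocytes can be brought to make it by interferon-gamma.

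The genotype was checked first. Probe set 1460692_PM_at of Ehmt2 read 7.07, 6.72, 6.35 and 6.30 on the log2 scale in cKO arrays 1 to 4, and 9.77, 9.25, 9.69 and 9.26 in WT arrays 1 to 4. Ehmt2 was thus 7.37-fold lower in cKO at this probe set (log2 difference -2.88, SE 0.19, limma adjusted p = 0.000244). The other Ehmt2 probe set, 1426888_PM_at, differed by 0.01. WT 4 departed most from its group: its limma array weight, which falls as an array departs from its group, was 0.470, against 0.611 to 2.71 for the other arrays. Because WT 4 and cKO 2 were also the extremes of the class II genes, values without both arrays are given beside results that rest on them. Leaving out the highest cKO array and the lowest WT array lowers a class II difference by construction. Such values therefore do not show that a difference is absent. Array medians lay between 5.72 and 5.80. Keratinocyte markers (Krt5, Krt14, Krt1, Krt10 and Trp63) averaged 12.3 to 12.4 on every array as in keratinocyte tissue. None of the markers of keratinocytes, leukocytes, fibroblasts, endothelium, melanocytes or hair follicle passed the test between genotypes.

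The main finding is that the MHC and antigen presentation genes of this pre-neoplastic epidermis were not called different between G9a cKO and WT. At an adjusted p under 0.05 (limma, Benjamini-Hochberg over all probe sets) 0 of the 66 probe sets passed, against 0.466% of all probe sets tested. At an unadjusted p under 0.05 there were 4 of 66, namely H2-M3, 1 probe set each of Ciita and Cd1d1, all with higher means in cKO, and H2-T23, with a lower mean. Among all probe sets the same share was 7.98%. Groups that did not overlap were found at 3 of 66 probe sets (H2-M3, H2-K1 and Ciita, all higher in cKO), against 4.89% of all probe sets. The members' shares were thus near or under the background in each of these counts.

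The spread between replicate arrays, which sets how large a change could have been missed, was wide at 8 probe sets of the bright class II chains Cd74, H2-Aa, H2-Ab1 and H2-Eb1. Their SD between arrays of a group ran from 0.38 to 0.55, against a median of 0.09 over all probe sets. It was a median of 0.09 for the classical class I chains, 0.10 for peptide supply and control, 0.09 for class Ib and class I-like genes and 0.11 for the class II accessory genes, and as low as 0.03 at the dim class II chain H2-Ea. The 95% confidence intervals of the classical class I probe sets all lay between -0.21 and 0.22 on the log2 scale. Those of the 8 bright class II probe sets reached from -0.46 to 1.21.

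**Figure D1:**
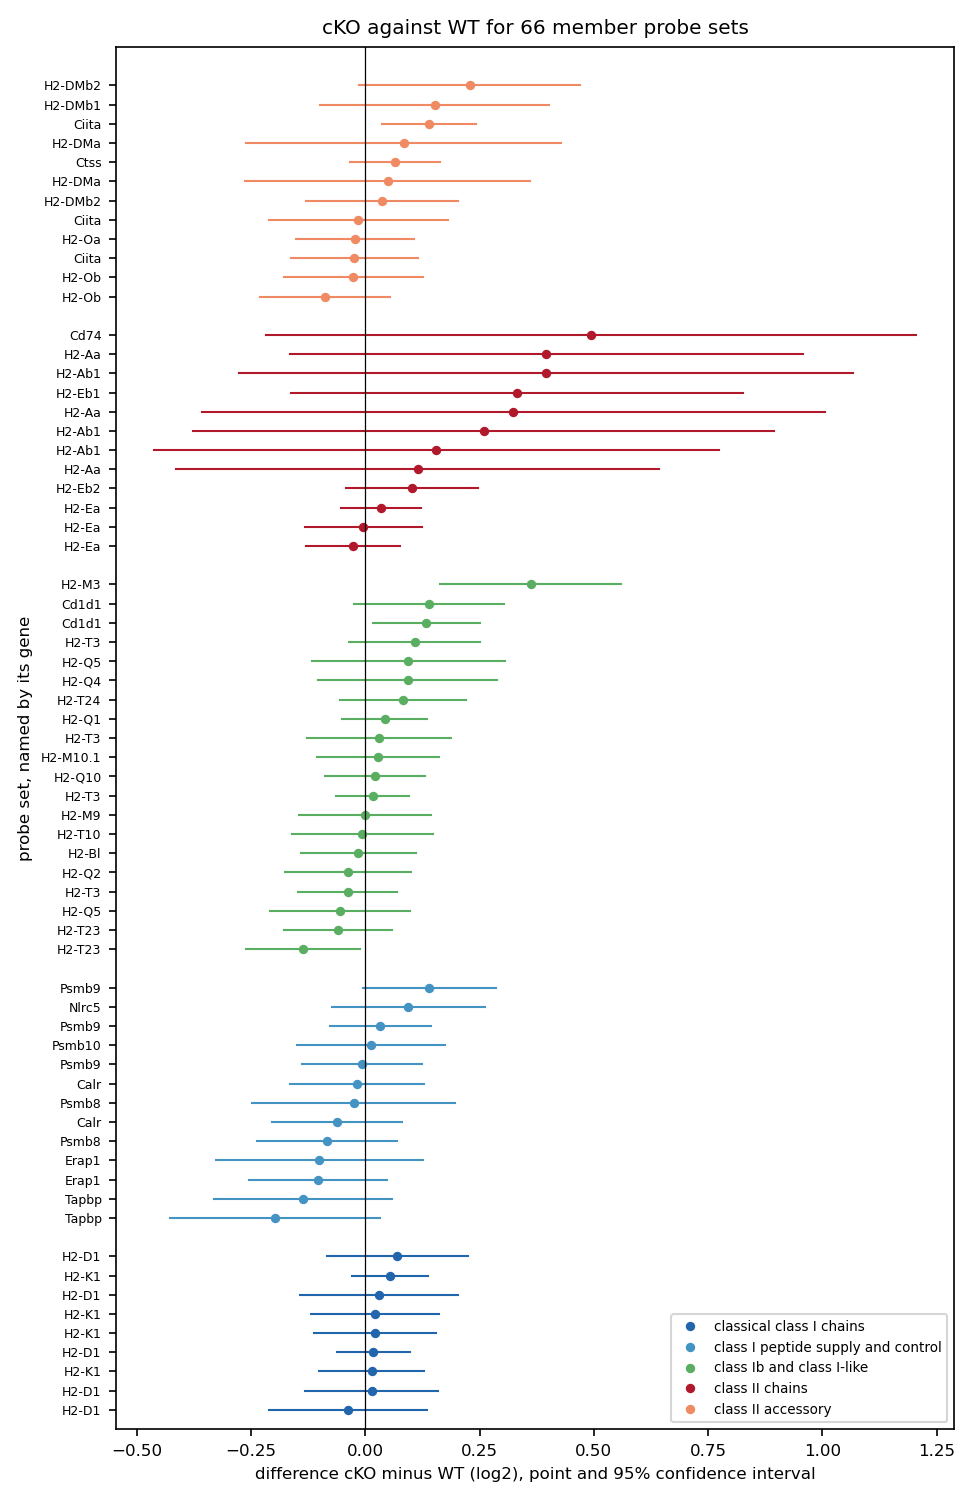
Each point is the difference cKO minus WT of 1 of the 66 member probe sets on the log2 scale, with its 95% confidence interval from limma (4 arrays per group), named by gene and coloured by role. The intervals of the class II chains with a bright signal are the widest, and those of the classical class I chains lie between -0.21 and 0.22.

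Promoter sequences are shown for members that the results turn on, because class II chains varied together across arrays while the classical class I chains varied little, and H2-M3 had the smallest p of the members. The runs below come from RefSeq (GRCm38.p6), in which 25 of the 36 member genes had an entry. Each is the 180 bases before the annotated start, 5′ to 3′ on the strand of the gene. Capitals mark matches on either strand to ATTGG (the core of the Y box, bound by NF-Y; CCAAT on the other strand), AGNAACNGA (like the X box, bound by RFX), TGATGACG (like the X2 box, bound by CREB; CGTCATCA on the other strand) and GGATTCCCC (like a kappaB site). The positions are chr17:34287824-34288003 (minus strand) for H2-Aa, chr17:34305687-34305866 (plus) for H2-Eb1 and chr17:34153011-34153190 (plus) for H2-DMb1. They are chr17:34000348-34000527 (minus, the first of 2 entries) for H2-K1, chr17:35262914-35263093 (plus) for H2-D1 and chr17:37270054-37270233 (plus) for H2-M3.
H2-Aa: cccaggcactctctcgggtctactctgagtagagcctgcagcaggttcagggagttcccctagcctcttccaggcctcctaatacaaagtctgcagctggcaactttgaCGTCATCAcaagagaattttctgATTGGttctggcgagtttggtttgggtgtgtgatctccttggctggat
H2-Eb1: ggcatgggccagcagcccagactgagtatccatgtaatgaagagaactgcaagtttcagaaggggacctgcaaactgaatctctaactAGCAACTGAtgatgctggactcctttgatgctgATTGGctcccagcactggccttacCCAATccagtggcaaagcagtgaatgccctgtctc
H2-DMb1: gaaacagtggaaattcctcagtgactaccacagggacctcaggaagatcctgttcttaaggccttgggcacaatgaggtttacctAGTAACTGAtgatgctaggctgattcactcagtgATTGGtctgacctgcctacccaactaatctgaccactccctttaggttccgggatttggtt
H2-K1: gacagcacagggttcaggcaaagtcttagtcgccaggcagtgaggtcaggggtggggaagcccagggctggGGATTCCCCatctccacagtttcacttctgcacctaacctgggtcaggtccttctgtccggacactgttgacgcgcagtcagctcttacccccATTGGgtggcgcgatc
H2-D1: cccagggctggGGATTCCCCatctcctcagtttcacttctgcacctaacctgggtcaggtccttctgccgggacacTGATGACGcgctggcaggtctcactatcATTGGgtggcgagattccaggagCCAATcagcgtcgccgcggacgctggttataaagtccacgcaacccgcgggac
H2-M3: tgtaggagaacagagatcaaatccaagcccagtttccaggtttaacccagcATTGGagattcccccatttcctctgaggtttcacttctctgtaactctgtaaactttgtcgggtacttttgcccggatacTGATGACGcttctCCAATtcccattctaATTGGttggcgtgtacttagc

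Of the class II promoters shown, H2-Eb1 and H2-DMb1 held the X-like motif before ATTGG. In H2-Eb1 the X-like motif AGNAACNGA began 92 bases and ATTGG 59 bases before the start, and in H2-DMb1 they began 95 and 61 bases before it. H2-Aa held TGATGACG on the other strand from base 71 and ATTGG from base 48 before the start. In windows of 250 bases before to 50 after the start, the X-like motif lay in 4 of 9 class II promoters (H2-Eb1, H2-Eb2, H2-DMb1 and H2-Oa), in 0 of 16 class I promoters and in 5.35% of all 32851 promoters. ATTGG was present in 8 of the 9 class II promoters and 11 of the 16 class I promoters, against 37.4% of all. The kappaB-like motif GGATTCCCC was found in H2-K1 and H2-D1 among the 16 class I promoters and in 0.283% of all promoters. TGATGACG was found in H2-D1, H2-M3 and H2-Aa and in 0.794% of all. In the class I genes H2-D1 and H2-M3 it also came before ATTGG, as in H2-Aa. It began 104 bases before the start in H2-D1, with ATTGG from base 76. In H2-M3 it began at base 49, with ATTGG from base 21 and another ATTGG farther out, at base 129. This order was thus not particular to class II. These matches are descriptions of the letters, since no binding was measured and no share was tested. The X, X2 and Y motifs belong to factors listed below as MHC transcription factors. Their presence in MHC promoters is therefore no independent result. H2-K1 and H2-D1 share long runs of letters, so their promoters are not separate observations.

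The classical class I heavy chains H2-K1 and H2-D1, which carry peptide to cytotoxic T cells, were at their brightest probe sets among the highest and steadiest signals of the arrays. H2-K1 (probe set 1425336_PM_x_at) read 12.82, 12.79, 12.81 and 12.78 in cKO and 12.72, 12.75, 12.75 and 12.76 in WT. Each cKO array lay above each WT array, but the gap was small: the means were 12.80 ± 0.02 and 12.75 ± 0.02 (SD, n = 4), the log2 difference was 0.05 (SE 0.04, 95% confidence interval -0.03 to 0.14), and it did not pass (limma adjusted p = 0.844). With 4 arrays in each group, an exact permutation test cannot go below p = 0.0286, two-sided, and H2-K1 reached this value. H2-D1 (1451784_PM_x_at) read 12.17, 12.19, 12.17 and 12.17 in cKO and 12.16, 12.16, 12.17 and 12.14 in WT. The difference of 0.02 (95% confidence interval -0.06 to 0.10, limma adjusted p = 0.981) was within the overlap of the groups.

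These probe sets lie close to the top of the measured range, where the largest value of the table is 13.03. H2-K1 stood above 99.98% and H2-D1 above 99.7% of probe sets by mean level, and the SD of H2-D1 between replicate arrays was among the lowest 0.0266% of probe sets. Whether the array signal was compressed there was not tested. No difference passed at the dimmer probe sets of the same genes. The other 3 probe sets of H2-K1 had means in WT of 7.28 to 12.1 and log2 differences of 0.01 to 0.02. Over the other 4 of H2-D1 the differences ran from -0.04, at 1451934_PM_at, to 0.07, at 1427651_PM_x_at. The first of these read 5.18, 5.06, 5.02 and 4.97 in cKO and 5.16, 5.17, 5.16 and 4.88 in WT. The second read 5.94, 5.95, 5.88 and 5.99 in cKO and 5.81, 5.88, 6.06 and 5.74 in WT. At both the groups overlapped. Of the 9 classical probe sets, 8 have the suffix _x_at, which marks probes that can bind transcripts of several genes, so H2-K1, H2-D1 and other class I genes may share their signal.

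The genes that make and load class I peptides showed no called change either, and 9 of 13 probe sets had a lower mean in cKO (median log2 difference -0.03, against 0.01 over all probe sets). Psmb8, a catalytic subunit of the immunoproteasome, read 10.85, 10.96, 10.72 and 10.62 in cKO and 10.85, 10.87, 10.96 and 10.56 in WT (probe set 1422962_PM_a_at). The lowest array was WT 4 and the groups overlapped fully, with a difference of -0.03 (SE 0.10, limma adjusted p = 0.993). Its dim second probe set differed by -0.08.

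Psmb9, the second inducible catalytic subunit, had 3 probe sets. The brightest, 1416016_PM_at, read 10.06, 10.23, 10.12 and 10.02 in cKO and 10.19, 10.10, 10.14 and 10.03 in WT, a difference of -0.01. 1450696_PM_at read 9.87, 10.01, 9.88 and 9.75 in cKO and 9.74, 9.79, 9.80 and 9.63 in WT. Its difference of 0.14 (SE 0.06, limma adjusted p = 0.650) was the largest with a higher mean in cKO in this group of genes, and the groups overlapped. The third, 1448177_PM_at, annotated with the same representative sequence as the first, differed by 0.03. Psmb10, the third inducible subunit, read 9.17, 9.34, 9.22 and 9.05 in cKO and 9.21, 9.21, 9.27 and 9.04 in WT, a difference of 0.01.

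Tapasin, encoded by Tapbp, bridges the TAP transporter and the empty class I heavy chain, and both its probe sets had lower means in cKO. 1421812_PM_at read 10.94, 11.01, 10.80 and 10.67 in cKO and 11.06, 10.99, 11.09 and 10.82 in WT (difference -0.14, SE 0.09, limma adjusted p = 0.806). 1450378_PM_at read 8.91, 9.16, 8.93 and 8.82 in cKO and 9.25, 9.22, 9.27 and 8.88 in WT (difference -0.20, SE 0.10, limma adjusted p = 0.711). WT 4 lay within the cKO range at both. Without cKO 2 and WT 4, a choice made after the data were seen, the second difference was -0.36 and passed (limma adjusted p = 0.0248), while that of the first, -0.25, did not (limma adjusted p = 0.172). At both probe sets cKO 2 was the highest cKO array and WT 4 the lowest WT array. Leaving them out therefore widens the fall by construction, and the pass is not read as a change of Tapbp.

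Erap1 trims peptides in the endoplasmic reticulum and calreticulin, Calr, folds the heavy chain. Erap1 (1416942_PM_at) read 7.04, 6.94, 6.92 and 6.82 in cKO and 7.08, 7.11, 7.07 and 6.88 in WT, a difference of -0.10 (SE 0.07, limma adjusted p = 0.815), and its second probe set also differed by -0.10. Calr (1456170_PM_x_at) lay between 11.05 and 11.14 in cKO and between 10.99 and 11.25 in WT, a difference of -0.02 (SE 0.06). The transactivator Nlrc5 read 10.20, 9.96, 10.16 and 9.94 in cKO and 10.07, 9.86, 9.95 and 9.99 in WT, and its difference of 0.09 (SE 0.07, limma adjusted p = 0.881) was within the overlap of the arrays. In all 3 genes the arrays of both groups interleaved.

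The class Ib and class I-like genes present special ligands, such as formylated peptides, leader peptides or lipids, and held the member with the smallest p. H2-M3, which presents N-formylated peptides of bacteria and mitochondria, read 8.45, 8.48, 8.52 and 8.13 in cKO and 8.11, 7.92, 8.01 and 8.10 in WT. Each cKO array lay above each WT array, but cKO 4 was only just above the highest WT array. The means were 8.39 ± 0.18 and 8.03 ± 0.09 (SD, n = 4), or 1.28-fold (log2 difference 0.36, SE 0.09, 95% confidence interval 0.16 to 0.56). The difference did not pass over all probe sets (limma adjusted p = 0.183; exact permutation p = 0.0286, two-sided). It passed with array weights (limma adjusted p = 0.0426) and when cKO 4 was left out (limma adjusted p = 0.0223), but in 7 of 8 fits that left out 1 array it did not, and without cKO 2 and WT 4 the limma adjusted p was 0.157. As cKO 4 was the lowest cKO array, leaving it out raises the difference by construction. H2-M3 has a single probe set here.

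H2-T23, the ligand of the inhibitory NKG2A receptor of natural killer cells, had the lowest difference of this class. It read 11.15, 11.15, 11.13 and 11.02 in cKO and 11.33, 11.31, 11.22 and 11.14 in WT (1449556_PM_at; -0.14, SE 0.06, limma adjusted p = 0.568). Only WT 4 fell among the cKO arrays. Cd1d1, which presents lipids to natural killer T cells, read 4.75, 4.77, 4.85 and 4.70 in cKO and 4.70, 4.48, 4.54 and 4.79 in WT at 1449130_PM_at (0.14, SE 0.07, limma adjusted p = 0.718). Its other probe set, 1449131_PM_s_at, differed by 0.13 (limma adjusted p = 0.535), and at both Cd1d1 was dim, below the median of all probe sets, 5.75. The other 16 probe sets of this class differed by -0.06 to 0.11, and the class median was 0.02.

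The bright class II chains Cd74, H2-Aa, H2-Ab1 and H2-Eb1 had the widest spread of the members. Cd74, H2-Aa and H2-Ab1 had at their brightest probe sets the largest differences of means, followed by H2-M3. Cd74, the invariant chain that guides class II assembly, read 8.79, 9.16, 8.53 and 8.01 in cKO and 8.26, 8.37, 8.63 and 7.26 in WT. cKO 2 was the highest and WT 4 by far the lowest array, and the groups overlapped. The means were 8.62 ± 0.48 and 8.13 ± 0.60 (SD, n = 4), a log2 difference of 0.49 (SE 0.32, 95% confidence interval -0.22 to 1.21, limma adjusted p = 0.814, exact permutation p = 0.286). Without WT 4 it was 0.20, and without WT 4 and cKO 2 it was 0.02. Both choices lower the difference by construction, and over all fits that left out 1 array it ran from 0.20 to 0.70.

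The class II alpha and beta chains repeated this order of arrays. H2-Aa, an alpha chain of the I-A molecule, read 8.93, 9.11, 8.66 and 8.33 in cKO and 8.39, 8.61, 8.80 and 7.65 in WT (1438858_PM_x_at; 0.40, SE 0.25, limma adjusted p = 0.804). H2-Ab1, its beta chain, read 10.64, 10.75, 10.29 and 9.87 in cKO and 10.12, 10.29, 10.47 and 9.10 in WT (1450648_PM_s_at; 0.39, SE 0.30, limma adjusted p = 0.869). H2-Eb1, the beta chain of the I-E molecule, read 10.06, 10.21, 9.76 and 9.51 in cKO and 9.58, 9.74, 9.94 and 8.94 in WT (0.33, SE 0.22, limma adjusted p = 0.826). In each gene cKO 2 was highest, WT 4 lowest and the other arrays overlapped between genotypes. Without both arrays, a choice that lowers them by construction, the differences were 0.04 for H2-Aa, -0.02 for H2-Ab1 and 0.02 for H2-Eb1. With 1 array left out they ran from 0.16 to 0.54 for H2-Aa, 0.10 to 0.57 for H2-Ab1 and 0.13 to 0.46 for H2-Eb1. The 2 further probe sets of H2-Aa differed by 0.11 and 0.32, and those of H2-Ab1 by 0.16 and 0.26.

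The remaining class II chains were dim and flat. H2-Ea, the alpha chain of I-E, which some laboratory strains do not express, had 3 probe sets with every value between 3.52 and 4.51. Its lowest difference, at 1426202_PM_at, was -0.03: that probe set read 3.53, 3.53, 3.62 and 3.61 in cKO and 3.62, 3.64, 3.52 and 3.63 in WT. H2-Eb2 read 5.74, 5.69, 5.48 and 5.52 in cKO and 5.48, 5.47, 5.57 and 5.51 in WT, a difference of 0.10 with overlapping groups. The 3 H2-Ea probe sets and H2-Eb2 are the class II chain probe sets below the median of all probe sets.

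**Figure D2:**
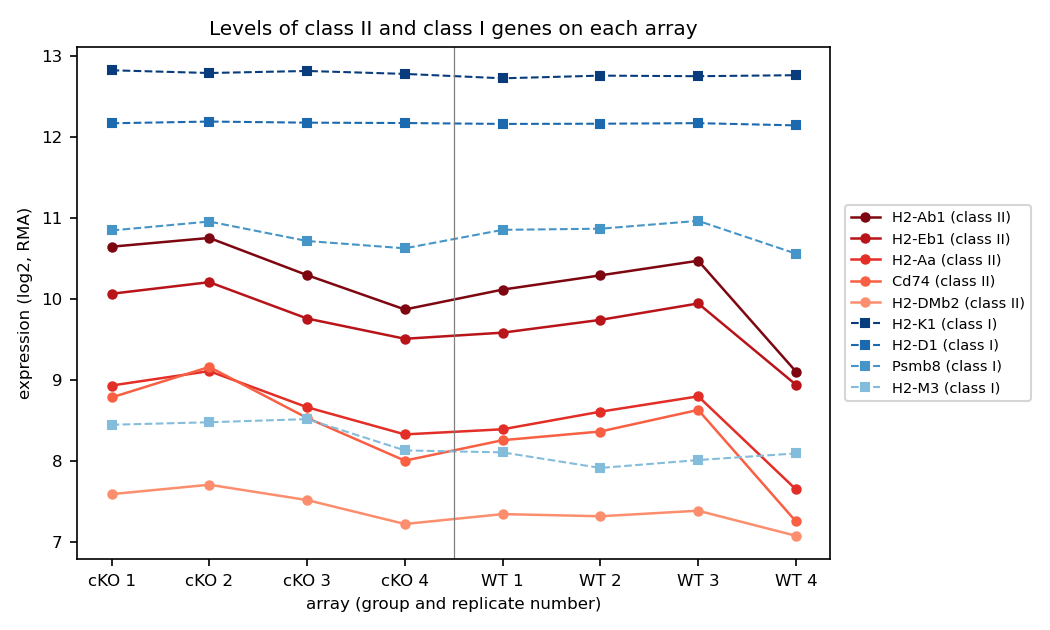
The vertical axis is log2 expression (RMA) on each of the 8 arrays along the horizontal axis, for 5 class II genes (solid lines) and 4 class I genes (dashed), lines only joining the values of a gene. The class II lines share a low point at WT 4 and a high point at cKO 2, whereas H2-K1 and H2-D1 stay within 12.72 to 12.82 and 12.14 to 12.19.

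Over the 8 probe sets of the 4 bright class II genes (Cd74, H2-Aa, H2-Ab1 and H2-Eb1), WT 4 was the lowest array in 8 of 8 and cKO 2 the highest in 7 of 8. Over all probe sets, WT 4 was lowest in 17.0% and cKO 2 highest in 10.3%. The median deviation of these 8 probe sets from their own means was -0.89 in WT 4 and 0.55 in cKO 2. In the other arrays it was 0.39, 0.04 and -0.34 in cKO 1, 3 and 4, and -0.10, 0.06 and 0.27 in WT 1, 2 and 3. Both genotypes thus held arrays above and below the common mean. The median log2 difference of these 8 probe sets was 0.33 with all arrays, 0.07 without WT 4 and -0.06 without WT 4 and cKO 2. Leaving out these arrays lowers that median by construction. The SD between replicate arrays was larger than in 99.9% of all probe sets for Cd74, 99.8% for H2-Ab1, 99.6% for H2-Aa and 99.1% for H2-Eb1.

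Class II genes were correlated across arrays, also once the group means were removed. Against Cd74 over the 8 arrays, Pearson's r was 0.992 for H2-Aa, 0.986 for H2-Ab1 and 0.991 for H2-Eb1, and Spearman's rho was 1.00 for each. The exact permutation p of r was 2.5e-05 for each, the smallest that 40320 orders allow, or 4.1e-05 adjusted over 5 relations; that of rho was 5e-05, or 8.3e-05 adjusted. With the 2 arrays farthest from the median of Cd74 left out (cKO 2 and WT 4), r was 0.972, 0.982 and 0.964, and with the group means removed it was 0.990, 0.986 and 0.989. Cd207, which encodes langerin, the defining protein of Langerhans cells, gave r = 0.785 and rho = 0.810 (exact permutation p = 0.0173 and 0.0218, adjusted 0.0216 and 0.0272), 0.788 without the same 2 arrays and 0.814 with the group means removed. Ptprc, the pan-leukocyte gene, gave r = -0.08 and rho = -0.29 (exact permutation p = 0.861 and 0.501, the same after adjustment) and -0.19 without those arrays, but 0.38 with the group means removed, so its sign was not settled. Dendritic cell markers other than Cd207 were not correlated with Cd74 here.

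Markers of class II-bearing cells moved little between the arrays. Cd207 was dim, from 4.50 to 4.78 in cKO and 4.51 to 4.70 in WT, with its lowest values in cKO 4 and WT 4. Its highest value was in cKO 1 (4.78), with 4.71 in cKO 2. The mean over the 8 measured of 10 listed dendritic cell markers ran from 4.96 to 5.02 in cKO and 4.94 to 4.99 in WT. It was lowest in WT 4, but cKO 2 (5.018) was not the highest array (5.020). Mgl2 lay under the lower quartile of all probe sets. Within the list WT 4 was the lowest array for Cd86 (4.82) but the highest for Zbtb46 (5.77). None of the 8 passed the test. The mean of the macrophage and monocyte markers in WT 4 (4.72) was the highest of the WT arrays. The level of Ptprc was 3.40 to 3.63, under that lower quartile. In RNA pooled from interfollicular epidermis cells, fewer class II-bearing cells and less class II RNA per cell cannot be told apart. The part of these markers in the class II values was not tested.

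**Figure D3:**
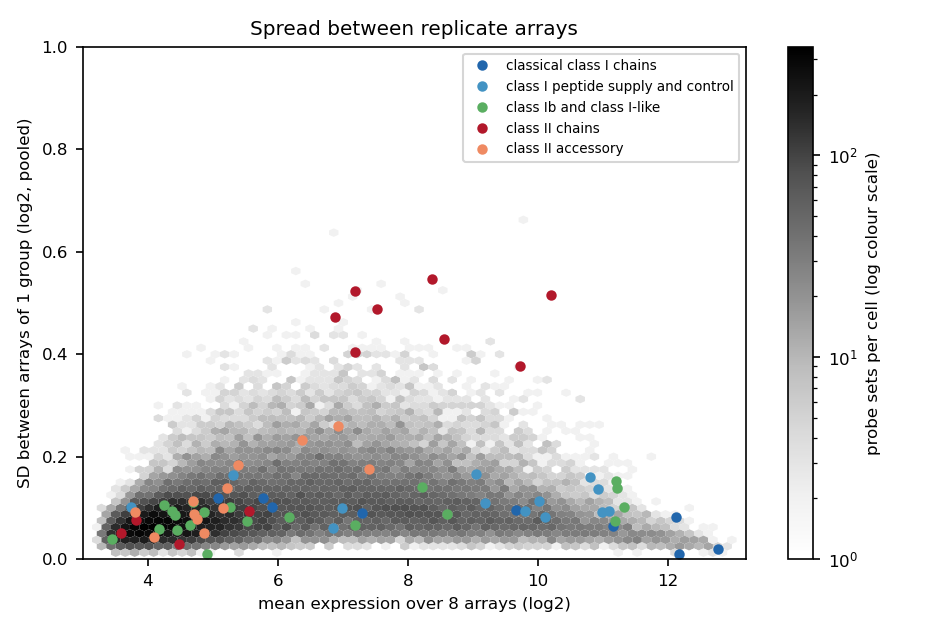
The horizontal axis is mean log2 expression over 8 arrays and the vertical axis the SD between arrays of a group (pooled, log2), with all probe sets as grey cells whose shade counts probe sets on a log scale and the 66 members as coloured points. The 8 bright class II chain probe sets lie at SDs of 0.38 to 0.55, above most probe sets of their level, while the classical class I chains lie at 0.01 to 0.12.

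The accessory genes of class II, which exchange the peptide or switch the chains on, had a median log2 difference of 0.04 over 12 probe sets, against 0.21 for the 12 of the chains. Without cKO 2 and WT 4 these medians were -0.04 and -0.0043, and the difference between both sets was not tested. H2-DMb2, a beta chain of the H2-DM peptide exchanger, read 7.59, 7.71, 7.52 and 7.22 in cKO and 7.35, 7.32, 7.39 and 7.08 in WT. WT 4 was again lowest and cKO 2 highest. The difference of 0.23 (SE 0.11, limma adjusted p = 0.661), the largest of the accessory genes, was 0.09 without both arrays. With 1 array left out it ran from 0.16 to 0.32. The other H2-DM probe sets, of H2-DMa, H2-DMb1 and H2-DMb2, differed by 0.04 to 0.15. H2-Oa and H2-Ob, which encode the inhibitor of H2-DM, were dim, with differences of -0.02 at H2-Oa and -0.03 and -0.09 at H2-Ob. The lowest of these, at 1440837_PM_at of H2-Ob, read 3.73, 3.78, 3.78 and 3.74 in cKO and 3.95, 3.66, 3.91 and 3.88 in WT.

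Ciita, the master switch of class II transcription, was dim at all 3 probe sets, and they disagreed. The brightest, 1421211_PM_a_at, read 5.34, 5.24, 5.12 and 5.14 in cKO and 5.17, 5.32, 5.39 and 5.01 in WT, a difference of -0.02 (SE 0.09, limma adjusted p = 0.996). 1447075_PM_at read 4.88, 4.95, 4.91 and 5.004 in cKO and 4.78, 4.85, 4.80 and 4.74 in WT. There each cKO array lay above each WT array, with a difference of 0.14 (SE 0.05, limma adjusted p = 0.411; exact permutation p = 0.0286). The third, 1421210_PM_at, differed by -0.02. Ctss, cathepsin S, which cuts the invariant chain in antigen-presenting cells, read 4.16, 4.05, 4.13 and 4.16 in cKO and 4.06, 4.05, 4.11 and 4.02 in WT. It was below the lower quartile of all probe sets, 4.50, and its difference of 0.06 (SE 0.04, limma adjusted p = 0.831) lay within overlapping groups.

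**Figure D4:**
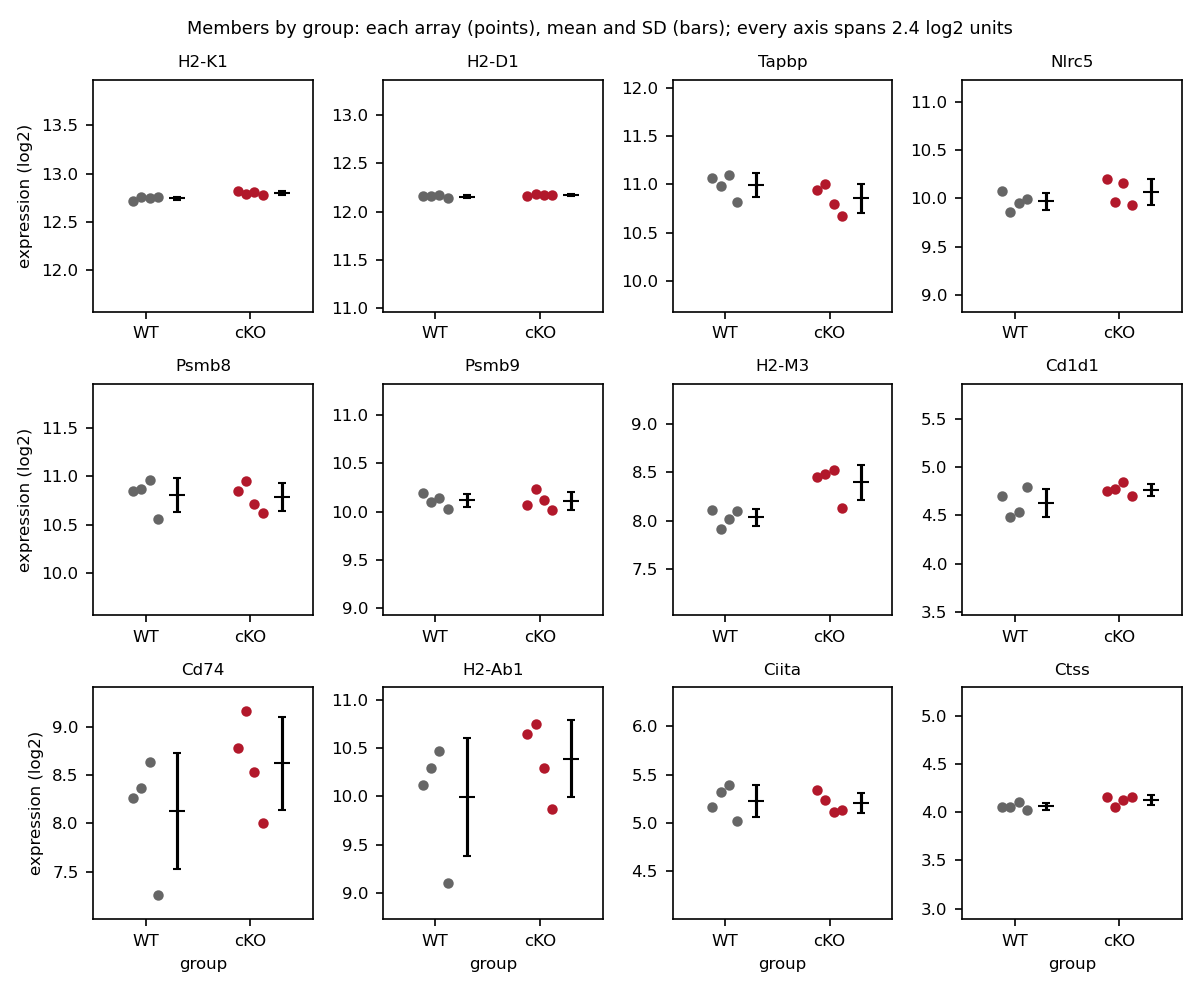
Points are single arrays, and the bars beside them the mean and SD of 4 arrays per genotype, for 12 members with log2 expression on the vertical axes, each spanning the same length. Cd74 and H2-Ab1 are spread widely in both genotypes, while H2-K1, H2-D1 and Ctss are tight and H2-M3 has its 4 cKO points, from 8.13 to 8.52, above the WT points, from 7.92 to 8.11.

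Genes around the pathway were read from lists by role. The 7 proteasome and PA28 genes, 6 of 7 assembly chaperones, the 7 MHC transcription factors (Rfx5, Rfxap, Rfxank, Nfya, Nfyb, Nfyc and Creb1), 8 of 9 interferon-gamma genes, 6 co-stimulatory and inhibitory ligands and 2 of 9 NKG2D ligands were measured, and 0 passed in each list. The largest absolute differences were 0.06 for Psmb5 (limma adjusted p = 0.897), -0.17 for Tapbpl (0.281), a tapasin relative, -0.13 for Nfyb (0.839), -0.14 for Jak2 (0.825), 0.30 for Cd80 (0.693) and 0.29 for Ulbp1 (0.681). In the list of endolysosomal enzymes 1 gene of 7 passed, higher in cKO, against 0.466% of all probe sets. This is a result about 1 gene and not about the list.

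That gene was Ctsh, cathepsin H, an aminopeptidase of the endolysosome. It read 10.22, 10.22, 10.15 and 10.01 in cKO and 9.73, 9.80, 9.71 and 9.88 in WT. Each cKO array lay above each WT array, 1.30-fold on average (log2 difference 0.37, SE 0.06, 95% confidence interval 0.23 to 0.51, limma adjusted p = 0.0420). The call was lost in 6 of the 8 fits that left out 1 array (without WT 1, WT 2, WT 3, cKO 1, cKO 2 or cKO 3, limma adjusted p from 0.0982 to 0.171). It was kept without WT 4 (0.0270), without cKO 4 (0.0225) and without both WT 4 and cKO 2 (0.0400). WT 4 was the highest WT array and cKO 4 the lowest cKO array, so leaving out either raises the difference by construction. The other cathepsins and Ifi30, the lysosomal thiol reductase, did not pass. Ctsz was 0.33 higher by its means (limma adjusted p = 0.314), Lgmn 0.29 lower (-0.29, limma adjusted p = 0.479) and Ifi30 differed by -0.08 (limma adjusted p = 0.700).

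Ehmt2 lies within the H2 complex itself, so the deleted gene and most members are linked. In RefSeq order from H2-K1 to H2-M2 there are 283 genes, of which 116 were measured by 172 probe sets, 27 of them members. Apart from Ehmt2, 0 of 170 probe sets passed, against 0.466% over the array. At an unadjusted p under 0.05 there were 13 (7.65%), and 7 (4.12%) had groups that did not overlap, both shares close to those of all probe sets. The median log2 difference was 0.01. The alleles of the MHC carried along with the targeted locus do not appear in the labels, so genotype at Ehmt2 and linked alleles cannot be told apart.

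The nearest measured neighbours of Ehmt2 were Zbtb12, C2, Cfb and Nelfe on the H2-K1 side and Slc44a4, 1110038B12Rik, Hspa1b and Hspa1l on the other. None passed. The largest difference was that of C2, complement component C2, which read 6.77, 6.92, 6.52 and 6.48 in cKO and 7.25, 7.16, 7.32 and 6.90 in WT. WT 4 lay just inside the cKO range, and the difference of -0.49 (SE 0.12) did not pass (limma adjusted p = 0.182; exact permutation p = 0.0571). Hspa1b differed by -0.40 to 0.02 at its 3 probe sets, with WT 4 the highest array at each.

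**Figure D5:**
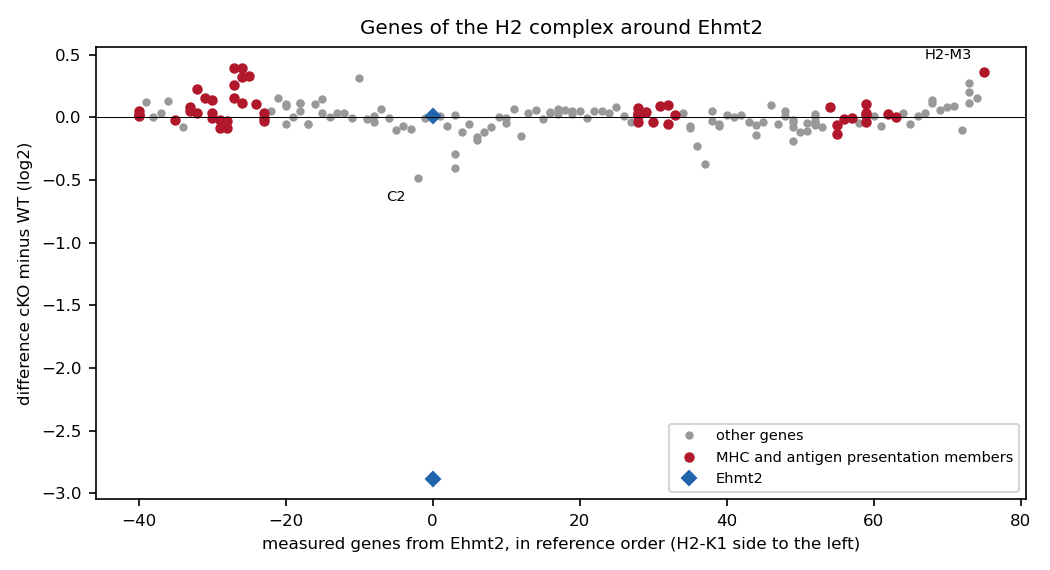
The horizontal axis counts measured genes from Ehmt2 in reference order, with the side of H2-K1 to the left, and the vertical axis is the difference cKO minus WT (log2) of each of 172 probe sets. Ehmt2 (blue) stands at -2.88 and 0.01, C2 at -0.49 and H2-M3, at the right end, at 0.36, and the other members (red) and genes (grey) lie between these last values except for H2-Ab1 and H2-Aa, at up to 0.40 on the left.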

How the data were processed

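Expression was measured in 8 samples of treated mouse interfollicular epidermis, 1 array each, in 2 groups of 4. Each sample was amplified from 25 ng of RNA in 17 cycles, and the part of this step in the spread between arrays was not tested. Per the submitters' processing notes the authors used RMA, for which no version or setting is stated. RMA subtracts background, brings the arrays to common quantiles and summarises probes, so a shift of all genes together cannot be seen. The deposited values are read as log2 signal per probe set, a base inferred from their range of 3.06 to 13.03. Scanner files were not used here, so saturation and background could not be examined.

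Of 45141 rows, 104 were controls and 45037 entered the fit, with no filter on dim probe sets. The annotation gives 28898 of them 1 gene and 551 several, and 15588 are unnamed here. The 8 member probe sets with several symbols were kept apart. cKO was compared with WT by the moderated linear model of limma 3.58.1 (R 4.3.3; lmFit, eBayes). Tests were two-sided, with p-values adjusted by Benjamini-Hochberg over all probe sets and a threshold of 0.05. Differences are cKO minus WT on the log2 scale with their SE, and confidence intervals are 95% and unadjusted. Exact permutation tests were two-sided over 70 arrangements. The procedure was tested on simulated data.

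The members and lists were chosen with earlier results of these data known. Members named with every array are the listed genes and classical chains at their brightest probe set, and the largest difference in each direction in each class. Of other lists, called genes or the largest absolute difference are named, and Ctsz, Lgmn and Ifi30 were added after their values were seen. Replicate numbers are not said to pair the samples and were not used as pairs in the main fit. Deviations of same-numbered arrays correlated at 0.13, 0.22, -0.62 and 0.37, which cannot settle whether they were paired. Alternatives were the replicate block, filters, normalisations, gene tables, probe set suffixes, array weights, thresholds and left-out arrays. Array number, 4 per group, limits precision. Plots were drawn with matplotlib 3.10.9.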

Additional observations from a re-analysis of the deposited data

Results flagged for a closer look

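Of 50 groups of 4 arrays examined for named members, 5 had 1 array far from the other 3, and chance gives about 1 in 20. In WT 4, Erap1 read 6.88 against 7.07 to 7.11 in the other WT arrays, H2-D1 at 1451934_PM_at read 4.88 against 5.16 to 5.17, and Tapbp at 1450378_PM_at read 8.88 against 9.22 to 9.27. H2-T23 read 11.02 in cKO 4 against 11.13 to 11.15 in the other cKO arrays. H2-Ea at 1426202_PM_at read 3.52 in WT 3 against 3.62 to 3.64. The bright class II chains were not among these 5, although WT 4 was their lowest array.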

How the results depend on the processing

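The count of members that passed the test was 0 in all fits except 3: it was 1 with array weights and without cKO 4 (H2-M3 in both), and 1 without cKO 2 and WT 4 (Tapbp), so leaving out 1 array gave 0 to 1. Leaving out cKO 4 for H2-M3, or cKO 2 and WT 4 for Tapbp, widens the difference by construction. The replicate block gave 0 members, 175 of all probe sets, and 11 members at an unadjusted p under 0.05, which compares with 4 without the block. That unadjusted count was 2 above the median level, 2 in the gene table of highest means, 11 with array weights, 9 without cKO 2 and WT 4, and 2 to 8 with 1 array left out. The share of all probe sets at this unadjusted p is given here only for the fit used in the Results, 7.98%. The unadjusted counts of the other fits thus have no background beside them and are not read as a result about the members. Over all probe sets 210 passed; the count was 132 above the median level, 758 with array weights, 343 at a threshold of 0.1, 99 at 0.01, 657 without cKO 2 and WT 4 and 104 to 356 with 1 array left out (104 without WT 1, 108 without cKO 3, 112 without WT 3, 131 without cKO 2, 356 without WT 4). The cause of these shifts was not tested. The median difference of the classical class I chains was -0.038 on the 1 probe set left without the _x_at and _s_at suffixes, and that of the class II accessory genes was -0.042 without cKO 2 and WT 4. With 1 array left out the medians ran from -0.0046 to 0.05 (classical class I), -0.11 to 0.0013 (peptide supply), 0.01 to 0.04 (class Ib), 0.05 to 0.39 (class II chains) and -0.03 to 0.07 (class II accessory).

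Of 25 named probe sets, 18 kept their direction in every fit and 7 reversed, none of which passed. Psmb10 was -0.0047 with median-centred arrays, -0.013 with array weights and -0.083 without cKO 2 and WT 4. H2-Ab1 was -0.023 without those arrays, H2-Ea 0.0088 with array weights, and Ciita and Psmb9 0.033 and 0.055 on the mean of their probe sets. With 1 array left out, Calr ran from -0.055 to 0.031, Ciita from -0.085 to 0.040, Psmb10 from -0.036 to 0.060, Psmb8 from -0.11 to 0.028 and Psmb9 from -0.049 to 0.022.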

Other observations

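Irf1 and Cd274, both chosen after their values were seen, had their lowest array at WT 4. Irf1, an interferon-induced transcription factor of class I genes, read 10.63, 10.70, 10.27 and 10.06 in cKO and 10.63, 10.62, 10.62 and 9.93 in WT (log2 difference -0.03, limma adjusted p = 0.996). Cd274, which encodes the T cell inhibitor PD-L1, read 7.00, 7.22, 6.76 and 6.59 in cKO and 6.98, 6.94, 7.11 and 6.44 in WT (0.03, limma adjusted p = 0.996). In both genes cKO 2 was the highest array and cKO 4 the lowest of its group, as for Cd74. Other genes that interferon-gamma can induce were divided. Besides the bright class II chains, the lowest array was WT 4 for Psmb8 (10.56), Psmb10 (9.04), Psme1 (10.49), Psme2 (9.75) and Socs1 (4.95). It was also WT 4 for Psmb9 at 1450696_PM_at (9.63). The lowest array was WT 2 for Nlrc5 (9.86). It was cKO 4 for Psmb9 at its brightest probe set (10.02), H2-T23 at 1449556_PM_at (11.02) and Ifi30 (10.24).

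Ulbp1, a ligand of the NKG2D receptor, read 5.23, 5.96, 5.70 and 5.95 in cKO and 5.42, 5.38, 5.44 and 5.42 in WT, so that 3 of 4 cKO arrays lay above all WT arrays and cKO 1 below them. It did not pass with all arrays (limma adjusted p = 0.681) and passed without cKO 1 (limma adjusted p = 0.0405). Leaving out cKO 1, the lowest array, raises the difference by construction. Over all fits that left out 1 array the limma adjusted p ran from 0.0405 to 0.999947. The 8 probe sets that the annotation assigns to H2-K1 and H2-D1 together or to H2-Q6 with Ddx39b differed by -0.07 to 0.06, and none passed (smallest limma adjusted p = 0.916).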
